A study of Mus musculus with 10 samples.

Results

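Neogenin-1 and 7 partner genes were read in blood stem cells that had been sorted for neogenin-1 on their surface. The set holds Neo1, which encodes neogenin-1, its ligands of the repulsive guidance molecule (RGM) family (Rgma, Rgmb) and of the netrin family (Ntn1, Ntn4), and the related receptors Dcc, Unc5b and Robo4. The 8 genes were taken by symbol from a table of 24544 genes, and all 8 were found. They were chosen by name, and cells were parted by the neogenin-1 protein, so Neo1 itself serves as a check of the sort and is no finding.

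The study sorted long-term hematopoietic stem cells, which sustain blood formation after transplantation, from bone marrow of Hoxb5-mCherry mice aged 2 to 3 months, a reporter strain in which a fluorescent protein marks Hoxb5 expression. Both groups carried this reporter and none was treated. Cells of both groups were Hoxb5+, CD150+, SCA1+ and cKIT+ and lacked CD34, CD48, FLK2 and lineage markers, and they differed in NEO1, which was positive in 5 libraries and negative in the other 5. A library was made from 250 to 500 cells pooled from 2 mice by Smart-seq2, an oligo-dT primed full-length cDNA method, with 18 cycles of PCR. The labels do not say whether a NEO1+ and a NEO1- library came from the same mice, and p-values measure the spread between these pools. The question put by the study is whether NEO1 parts Hoxb5+ stem cells into myeloid-biased and balanced cells.

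Neogenin-1 is a single-pass receptor of the immunoglobulin superfamily and a close relative of DCC. RGM proteins are anchored in the membrane by a lipid, bind neogenin-1 and also act as co-receptors for bone morphogenetic proteins (BMPs), while netrins are secreted, laminin-related proteins read by neogenin-1, DCC and the UNC5 receptors. In bone marrow, netrin-1 from niche cells acting on neogenin-1 has been linked to stem cell quiescence, and ROBO4, a roundabout receptor of endothelium and of blood stem cells, to their lodging in the marrow.

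Neo1 and Robo4 held most of the counts of the set, so the sequences around their transcription starts are shown first. Both lie on chromosome 9 of the mouse genome. In the annotation (GENCODE, GRCm38, the same assembly as the mm10 build named in the submitters' processing notes) Neo1 is a protein-coding gene on the minus strand from 58874687 to 59036441 and Robo4 a protein-coding gene on the plus strand from 37401897 to 37415115. The windows run from 250 bases before to 50 after the start that RefSeq gives on GRCm38.p6, which equals the GENCODE start for Neo1 and lies at 37401972, 75 bases downstream of it, for Robo4. They are printed 5′ to 3′ on the strand of the gene, with each CG dinucleotide in capitals. The Neo1 window is chr9:59036392-59036691 (minus strand) and the Robo4 window chr9:37401722-37402021 (plus strand).
Neo1: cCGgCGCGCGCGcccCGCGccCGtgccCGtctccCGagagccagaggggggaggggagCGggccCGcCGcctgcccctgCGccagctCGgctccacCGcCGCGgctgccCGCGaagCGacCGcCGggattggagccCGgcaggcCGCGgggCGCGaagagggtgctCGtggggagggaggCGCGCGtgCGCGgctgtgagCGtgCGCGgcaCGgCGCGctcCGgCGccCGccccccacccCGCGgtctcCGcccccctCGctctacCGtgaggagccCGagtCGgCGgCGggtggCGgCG
Robo4: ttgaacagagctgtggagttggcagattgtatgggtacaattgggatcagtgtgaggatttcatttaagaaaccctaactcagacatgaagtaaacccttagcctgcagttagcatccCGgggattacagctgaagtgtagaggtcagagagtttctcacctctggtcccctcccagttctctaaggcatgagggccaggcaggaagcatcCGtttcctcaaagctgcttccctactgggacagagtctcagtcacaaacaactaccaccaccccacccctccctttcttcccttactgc

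The Neo1 window held 54 CG dinucleotides, more than 99.7% of 32851 mouse promoter windows of this length, whose median was 7. That of Robo4 held 2, more than 14.1% of these windows. A GC box (GGGCGG, searched on both strands) occurred 2 times in the Neo1 window, starting 23 and 2 bases before the start, and was not found in that of Robo4, while 35.7% of all windows held it. The motif of ETS factors (CCGGAA), that of GATA factors (AGATAA) and the core promoter element of the letters TATAAA, each searched on both strands, occurred in neither window and in 14.9%, 11.2% and 13.6% of all windows. These are descriptions of the letters and say nothing of the factors that bind there.

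Levels below are CPM, the counts of a gene per mega (M) of the library's counts, with library sizes scaled by the TMM method, and a gene was tested when it passed edgeR's filter on low counts, as 12203 genes did. Library totals ran from 21.2 to 38.9 M counts. Of the 8 members, 3 were tested (Neo1, Rgmb and Robo4). The other 5 had 0 counts throughout (Rgma and Dcc) or counts in only some libraries (Ntn1, Ntn4 and Unc5b). They are reported as not expressed at a level that could be tested. Each of the 11 stem cell markers read, among them Kit, Ly6a, Slamf1 and Hlf, had counts in both groups. Their summed level was 2511 ± 133 CPM (SD, n = 5) for NEO1+ and 2472 ± 158 CPM (SD, n = 5) for NEO1-. Within this list Tek, the receptor of angiopoietins, was at 42.9 ± 9.58 and 15.1 ± 4.52 CPM, without overlap (edgeR adjusted p 0.155). Hoxb5, the gene of the reporter, was low at 3.38 ± 0.93 and 1.40 ± 1.19 CPM and fell to 0 within NEO1-. For the surface markers that the gate excluded, transcripts of Cd34 were at 76.6 ± 28.1 and 86.1 ± 20.1 CPM. Flt3, the gene of FLK2, was at 3.66 ± 1.46 and 12.4 ± 13.8 CPM, and Cd48 at 1.92 ± 3.81 and 3.19 ± 3.41 CPM. Neutrophil and monocyte markers varied widely within both groups, from 345 to 3270 CPM in sum for NEO1+ and from 235 to 2608 CPM for NEO1-. One library stood apart by its Neo1 value: the library labelled NEO1+ number 4 held Neo1 at the level of NEO1- libraries. The level and fold change of Neo1 are given with and without it.

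Neo1 was higher in NEO1+ than in NEO1- libraries by a fitted fold of 4.46, and this difference did not pass the test across all genes. In NEO1+ libraries 1 to 5 Neo1 stood at 64.8, 48.6, 59.6, 12.5 and 52.1 CPM. NEO1- libraries 1 to 5 held 18.9, 11.5, 12.2, 4.56 and 6.15 CPM. Of the NEO1+ libraries 4 were above every NEO1- library, and the library labelled NEO1+ number 4 was above 4 of the NEO1- libraries and below that of number 1, so the groups overlapped through it. In pooled cells, a smaller share of cells that make a transcript and less of it per cell cannot be told apart.

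The counts behind these values were 1349, 1900, 2556, 412 and 1793 in NEO1+ and 593, 246, 360, 150 and 186 in NEO1- libraries. Counting error was small beside the spread: the exact Poisson interval (95%) around the 12.5 CPM of the library labelled NEO1+ number 4 was 11.4 to 13.8 CPM, and around the lowest NEO1- value 3.86 to 5.35 CPM. PCR copies were counted as reads, so these intervals cover counting error only.

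Neo1 thus averaged 47.5 ± 20.6 CPM over NEO1+ and 10.7 ± 5.66 CPM over NEO1- (SD, n = 5 each). The log2 fold change was 2.16 (SE 0.47, 95% interval 1.15 to 3.16), with an unadjusted p of 4.47e-04 and a Benjamini-Hochberg adjusted p of 0.248 by edgeR's quasi-likelihood test. DESeq2 gave the same size (2.15, SE 0.48) with an adjusted p of 0.00156. Leaving out the library labelled NEO1+ number 4 gave NEO1+ 56.3 ± 7.30 CPM (SD, n = 4), a log2 fold change of 2.40 (SE 0.39) and an edgeR adjusted p of 0.183, and the groups no longer overlapped. That library was picked by its low Neo1 value, so the smaller spread, the larger fold and the lack of overlap follow from the choice.

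Of 3 measures of the libraries read beside this result, 1 differed between the groups past adjustment. Markers of dividing cells (10 of 10 with counts in both groups) summed to between 260 and 436 CPM over the NEO1+ and between 67.2 and 204 CPM over the NEO1- libraries; on the log2 scale the difference was 1.64 (exact permutation p 0.00794, adjusted 0.0238 over the 3 measures). Genes with at least 1 count numbered 13146 ± 391 and 12142 ± 680 (exact permutation p 0.0397, adjusted 0.0595), and the share of counts in the ribosomal RNA precursor Rn45s was 32.3 ± 3.89% and 38.4 ± 5.01% (exact permutation p 0.0794, adjusted 0.0794; SD, n = 5 each). The library labelled NEO1+ number 4 held 338 CPM of dividing-cell markers, above every NEO1- library. It had 13142 genes with a count, below the 13147 of NEO1- library 4, and 27.9% of counts in Rn45s, the lowest share of all libraries. With genes detected in the model as a covariate, the log2 fold change of Neo1 was 3.11 (SE 0.69, edgeR unadjusted p 6.96e-04, adjusted 0.9998). In that fit 277 of 12203 genes had an unadjusted p under 0.05, against 806 without the covariate, and the adjusted p depends on all genes. The part of the dividing-cell genes in the result was not tested.

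**Figure D1:**
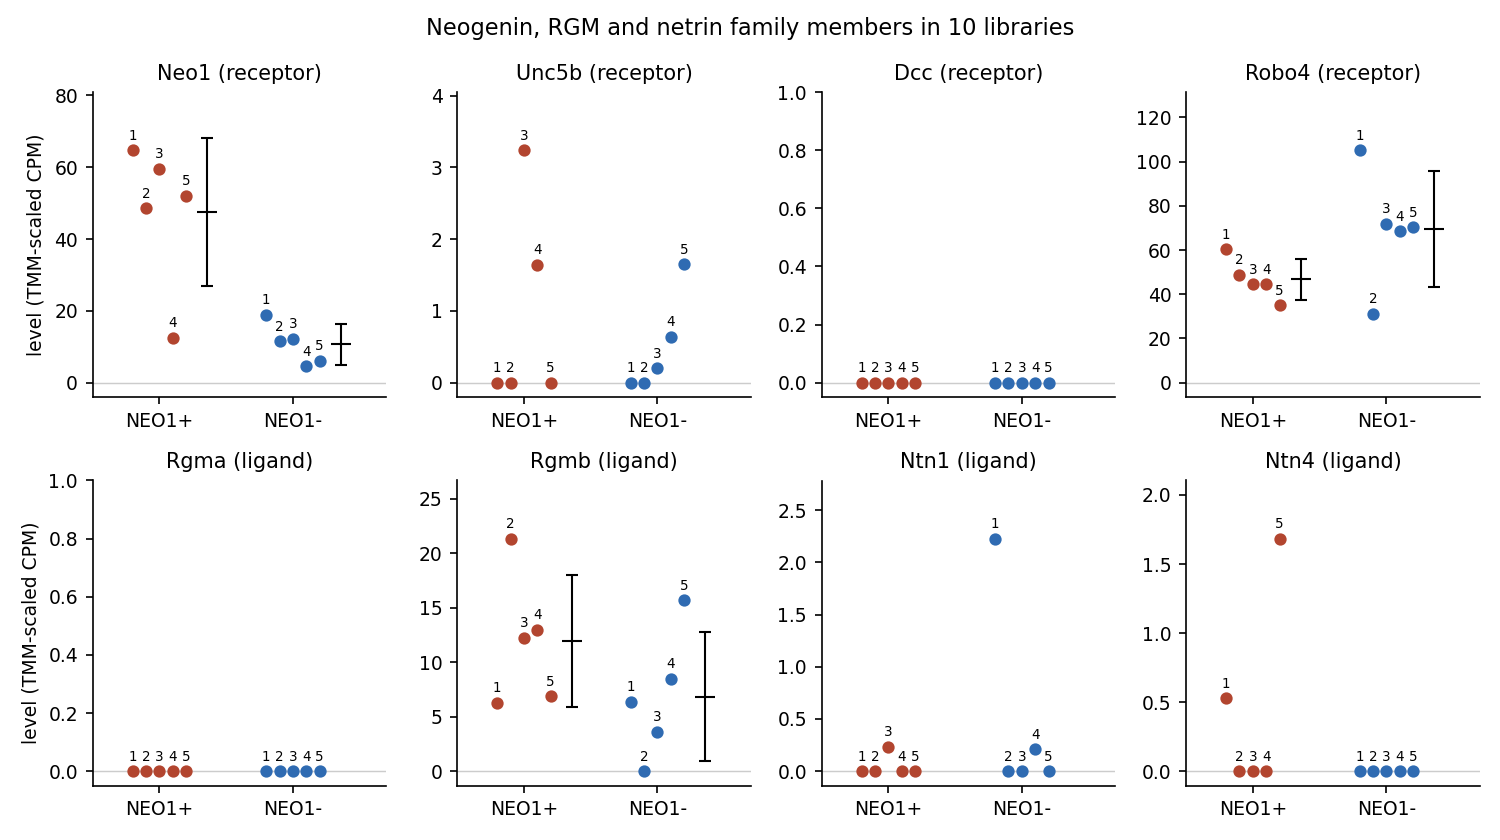
Level of each of the 8 members in 10 libraries (vertical axis, TMM-scaled CPM, linear, each panel with its own range). Points are libraries, labelled with their number, and bars are group means with 1 SD for the 3 members tested. Neo1 library 4 of NEO1+ lies at 12.5 CPM among the NEO1- libraries, Robo4 is the only panel in which 4 NEO1- libraries lie above all NEO1+ ones, and Rgma and Dcc lie at 0 throughout.

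Of the other receptors, Robo4 was abundant in both groups, Unc5b had counts in only some libraries and Dcc had none. Robo4 encodes a roundabout receptor that steadies endothelial junctions and is also expressed by blood stem cells. NEO1+ libraries 1 to 5 held 60.4, 48.8, 44.7, 44.5 and 35.1 CPM of Robo4, and NEO1- libraries 1 to 5 held 105, 31.2, 71.8, 68.5 and 70.3 CPM. NEO1- libraries 1, 3, 4 and 5 were above every NEO1+ library and NEO1- library 2 was below every one of them.

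The mean level of Robo4 came to 46.7 ± 9.16 CPM for NEO1+ and 69.4 ± 26.2 CPM for NEO1- (SD, n = 5 each). Its log2 fold change was -0.57 (SE 0.27, 95% interval -1.15 to 0.01), with an unadjusted p of 0.0526 and an edgeR adjusted p of 0.756, so it did not pass. Its size moved with the library left out, most with NEO1- libraries 1 and 2. Without NEO1- library 2 the log2 fold change was -0.76 (SE 0.20, edgeR unadjusted p 0.00295, adjusted 0.479) and the groups did not overlap. The overlap had come from that library alone, so its absence follows from the choice. Without NEO1- library 1 the log2 fold change was -0.37 (SE 0.25, edgeR adjusted p 0.848). Without NEO1+ library 1 it was -0.68 (SE 0.29, edgeR unadjusted p 0.0362, adjusted 0.882) and without NEO1+ library 5 it was -0.49 (SE 0.29). With genes detected as a covariate it was -0.34 (SE 0.37, edgeR adjusted p 0.9998).

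Robo4 is also an endothelial gene, so markers of endothelium were read beside it. Of 11 such markers, Cdh5 and Sox17 had 0 counts in all 10 libraries, and Flt1, Plvap and Stab2 reached at most 1.05, 3.59 and 3.90 CPM in any library. The other 6 had counts in both groups. Cldn5, a claudin of endothelial tight junctions, averaged 21.9 ± 7.33 CPM over the NEO1+ set, against 5.96 ± 4.28 CPM over NEO1-, and its groups did not overlap (log2 fold change 1.88, SE 0.63, edgeR unadjusted p 0.0103, adjusted 0.550). Sox18, a transcription factor of vessels, ran from 17.3 to 43.6 CPM over NEO1+ and from 5.47 to 25.6 CPM over NEO1- (log2 fold change 0.96, SE 0.41, edgeR unadjusted p 0.0359, adjusted 0.706). Kdr, a VEGF receptor, was at 12.8 ± 5.28 and 6.37 ± 6.29 CPM, and Pecam1 at 36.3 ± 7.58 and 19.4 ± 19.6 CPM. Emcn was at 37.9 ± 11.9 and 33.1 ± 8.24 CPM and Egfl7 at 105 ± 14.6 and 121 ± 22.3 CPM, and none of the 6 passed the test (SD, n = 5 each). Summed over the list, the level spanned 221 to 270 CPM for NEO1+ and 157 to 244 CPM for NEO1-, so its mean was higher in NEO1+ (247 against 203 CPM) where that of Robo4 was lower; the part of such cells in the result was not tested.

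Unc5b, a netrin receptor with a death domain in its cytoplasmic part, had 0 counts in 5 libraries. It stood at 0, 0, 3.24, 1.64 and 0 CPM in NEO1+ libraries 1 to 5 and at 0, 0, 0.203, 0.638 and 1.65 CPM in NEO1- libraries 1 to 5, with no more than 139 counts in a library. Both groups held libraries with and without it. Dcc, the netrin-1 receptor that steers axons, had 0 counts in every library. A count of 0 allows up to 3 counts, which is 0.0770 to 0.142 CPM of the total in a single library and 0.0187 CPM over the NEO1+ and 0.0196 CPM over the NEO1- group. These bounds cover counting error only and not transcripts lost before sequencing. Rgmb had 0 counts in NEO1- library 2 and 3.62 to 15.7 CPM in the other NEO1- libraries.

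Among the ligands Rgmb was the one with counts in most libraries. Rgmb encodes RGMB, also called Dragon, a BMP co-receptor that binds neogenin-1. NEO1+ libraries 1 to 5 held 6.29, 21.3, 12.2, 13.0 and 6.85 CPM of Rgmb. NEO1- libraries 1 to 5 held 6.37, 0, 3.62, 8.48 and 15.7 CPM, so a NEO1- library without a single count stood beside others at the level of the NEO1+ group.

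Mean Rgmb came to 11.9 ± 6.07 CPM for NEO1+ and 6.84 ± 5.89 CPM for NEO1- (SD, n = 5 each), and the groups overlapped widely. The log2 fold change of 0.80 (SE 0.96, 95% interval -1.27 to 2.88) had an edgeR adjusted p of 0.988. The interval spans changes in both directions, so these libraries do not show whether Rgmb differs. Its value moved with the library left out and with the model. Without NEO1- library 2, the one at 0, it was 0.48 (SE 0.59), without NEO1+ library 2 it was 0.49 (SE 1.09) and without NEO1- library 5 it was 1.37 (SE 1.06). It was 2.09 on the deposited log2 values (SE 1.37, limma adjusted p 0.641) and 0.23 with genes detected as a covariate (SE 1.38).

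The other ligands had no counts or had counts in only some libraries. Rgma, which encodes the RGM family member best known from the nervous system, had 0 counts in all 10 libraries. Ntn1, which encodes netrin-1, had counts in 3 libraries: 10 in NEO1+ library 3, 70 in NEO1- library 1 and 7 in NEO1- library 4, or 0.233, 2.23 and 0.213 CPM. Ntn4, which encodes a netrin of basement membranes, had 11 counts in NEO1+ library 1 and 58 in NEO1+ library 5, or 0.528 and 1.68 CPM, and 0 in the other 8. Markers of marrow stroma summed to 5.02 to 44.6 CPM for NEO1+ and 0 to 21.1 CPM for NEO1-, and Lepr, Col3a1 and Dcn among them had 0 counts throughout. Netrin-1 and RGMA made by other marrow cells would not be seen in these sorted cells.

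Read against the background, 0 of the 3 tested members passed an edgeR adjusted p of 0.05, as did 0 of all 12203 genes tested (0%). At an unadjusted p under 0.05 edgeR listed 806 genes (6.6%), 380 higher in NEO1+ (3.11%) and 426 lower (3.49%), and Neo1 was the only member among them. DESeq2 called 147 of 13721 genes (1.07%), with Neo1 as the only one of the 8; with the replicate number as a block it called 5.43%, again with Neo1 as the only member. Groups without overlap were found for 303 of the tested genes (2.48%, of which 1.35% higher and 1.13% lower in NEO1+) and for 0 of the 3 members.

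Per length, Robo4 was the most abundant member in both groups. Divided by the length of its merged exons (8716 bases for Neo1, 5302 for Robo4 and 7669 for Rgmb), the level of Robo4 was 8.81 ± 1.73 CPM per kb for NEO1+ and 13.1 ± 4.95 CPM per kb for NEO1-. Neo1 followed at 5.45 ± 2.36 and 1.22 ± 0.65 CPM per kb, and Rgmb at 1.56 ± 0.79 and 0.892 ± 0.768 CPM per kb (SD, n = 5 each). Without the library labelled NEO1+ number 4 the NEO1+ level of Neo1 was 6.45 ± 0.84 CPM per kb (SD, n = 4). Robo4 was above Neo1 in all 10 libraries on this scale. Neo1 was above Rgmb in 4 of the 5 NEO1+ libraries and not in the one labelled number 4 (1.44 against 1.69 CPM per kb), while in NEO1- libraries these neighbours did not differ beyond their spread. Among tested genes with a known length Neo1 stood at percentile 49.4 of the NEO1+ (54.4 without that library) and 18.0 of the NEO1- levels per kb, and Robo4 at 63.2 and 73.5.

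**Figure D2:**
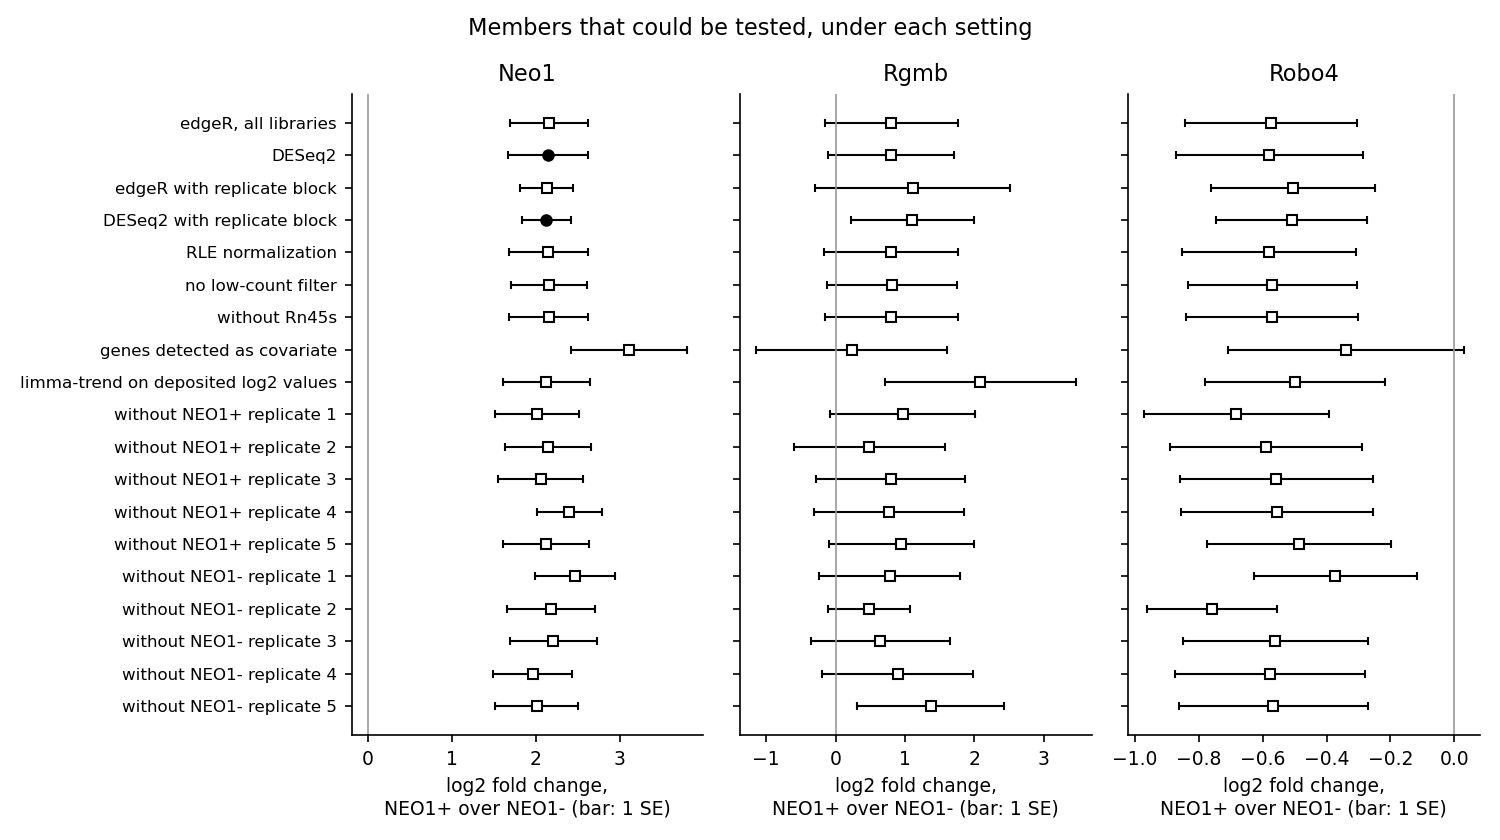
Log2 fold change of NEO1+ over NEO1- (horizontal axis, bars of 1 SE) for the 3 members tested, with all libraries, under each other analysis and without each library in turn. Filled circles mark an adjusted p under 0.05, which only DESeq2 gave and only for Neo1; the Neo1 values run from 1.96 to 3.11, and those of Robo4 from -0.76 to -0.34.

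Genes around neogenin-1 were read from lists of its ligand and receptor families, BMP signalling, cytoskeletal effectors and cleavage enzymes. Of 77 listed genes with a row, 58 were tested, and 0 passed an edgeR adjusted p of 0.05 or had an unadjusted p under 0.05. DESeq2 called 0 of them, and 3 (Ntn3, Fyn and Nckap1) with the replicate number as a block, a setting that called 5.43% of all genes. The median log2 fold change over the 58 was 0.13, with 40 positive and 18 negative, beside a median of 0.01 and 51.0% positive over all genes tested. Values of the named genes below are CPM as mean ± SD over 5 libraries a group.

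Further ligands mostly had no or few counts. Of 10 further netrin, RGM, SLIT and FLRT genes, 4 had 0 counts in all libraries (Hfe2, the gene of hemojuvelin, with Ntn5, Ntng1 and Slit1) and 2 were tested. Ntn3, a secreted netrin, was at 5.12 ± 3.23 in NEO1+, where all 5 libraries had counts, and 1.01 ± 1.83 in NEO1- libraries, where 2 had (log2 fold change 2.35, SE 1.68, edgeR adjusted p 0.900). Ntng2, a membrane-anchored netrin-G, was at 3.01 ± 1.60 and 5.23 ± 5.53.

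Among 15 further receptors and their modulators, 10 were tested, and Unc5a, a netrin receptor of the same family as Unc5b, stood out by its lack of overlap. Unc5a was at 21.7, 20.6, 8.51, 15.4 and 15.9 CPM in NEO1+ libraries 1 to 5 and at 0, 6.79, 7.62, 6.60 and 6.38 CPM in NEO1- libraries 1 to 5. Every NEO1+ library was above every NEO1- library, which 1.35% of tested genes also showed in this direction. The log2 fold change of 1.58 (SE 0.90) had an edgeR unadjusted p of 0.103 and an adjusted p of 0.839. Unc5c, Unc5d, Dscam and Robo2 had 0 counts in all libraries. Lrig1, a leucine-rich repeat protein that restrains receptor tyrosine kinases, was at 2.54 ± 1.58 and 0.659 ± 0.771, and Itga6, an integrin chain that binds laminin, at 113 ± 29.6 and 93.3 ± 37.3.

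The BMP arm, which RGM proteins serve as co-receptors, was measured by 14 tested genes. In the ligand and receptor list 7 of 10 genes were tested, with a median log2 fold change of 0.13. Eng, which encodes the co-receptor endoglin, was at 433 ± 39.3 in NEO1+ and 395 ± 42.2 in NEO1- libraries, Bmpr2, the type II BMP receptor, at 19.4 ± 6.97 and 23.8 ± 7.69, and Acvr1, a type I receptor, at 2.13 ± 1.18 and 9.59 ± 12.8. Bmp6 and Bmpr1b had 0 counts throughout. In the list of SMADs and BMP targets 7 of 9 were tested, with a median of -0.11. Smad4, the common partner of the signalling SMADs, was at 32.3 ± 4.98 and 42.3 ± 6.78 (log2 fold change -0.39, SE 0.21, edgeR adjusted p 0.818), Smad7, an inhibitory SMAD, at 35.3 ± 6.19 and 27.1 ± 16.3, and Id2, an inhibitor of helix-loop-helix factors, at 36.5 ± 10.2 and 27.9 ± 13.9.

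Of the cytoskeletal effectors, the small GTPase list passed the filter on low counts as a whole, with some genes at low levels. All 16 genes of small GTPases and their effectors were tested, and their log2 fold changes ran from -0.02 to 0.65 with a median of 0.24. Fyn, a SRC family kinase that acts downstream of DCC, was at 76.2 ± 20.6 and 48.6 ± 22.3 (log2 fold change 0.65, SE 0.30, edgeR unadjusted p 0.0507, adjusted 0.750). Rock2, a kinase that drives actomyosin contraction, was at 178 ± 28.9 and 143 ± 32.4, and Nck1, an adaptor, at 62.2 ± 15.3 and 47.5 ± 18.3.

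Of the WAVE regulatory complex, an assembly that promotes actin nucleation and binds the tail of neogenin-1, 8 of 9 genes were tested, with a median log2 fold change of 0.29. Cyfip2 was at 106, 108, 97.0, 99.0 and 122 CPM in NEO1+ libraries 1 to 5 and at 43.2, 96.0, 95.0, 92.5 and 79.8 CPM in NEO1- libraries 1 to 5. The groups did not overlap, by a margin of about 1 CPM between the closest libraries, and the log2 fold change was 0.39 (SE 0.20, edgeR adjusted p 0.807). Nckap1 was at 36.5 ± 12.7 and 18.7 ± 12.0, and Nckap1l, its blood cell paralog, at 118 ± 21.4 and 96.3 ± 37.0.

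Cleavage enzymes that shed neogenin-1 and DCC from the membrane were all tested (8 of 8, median log2 fold change 0.17). Aph1b, a scaffold subunit of the protease gamma-secretase, was at 13.1 ± 6.53 and 5.17 ± 5.42, and Psenen, another subunit, at 31.0 ± 2.85 and 38.2 ± 6.82.

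**Figure D3:**
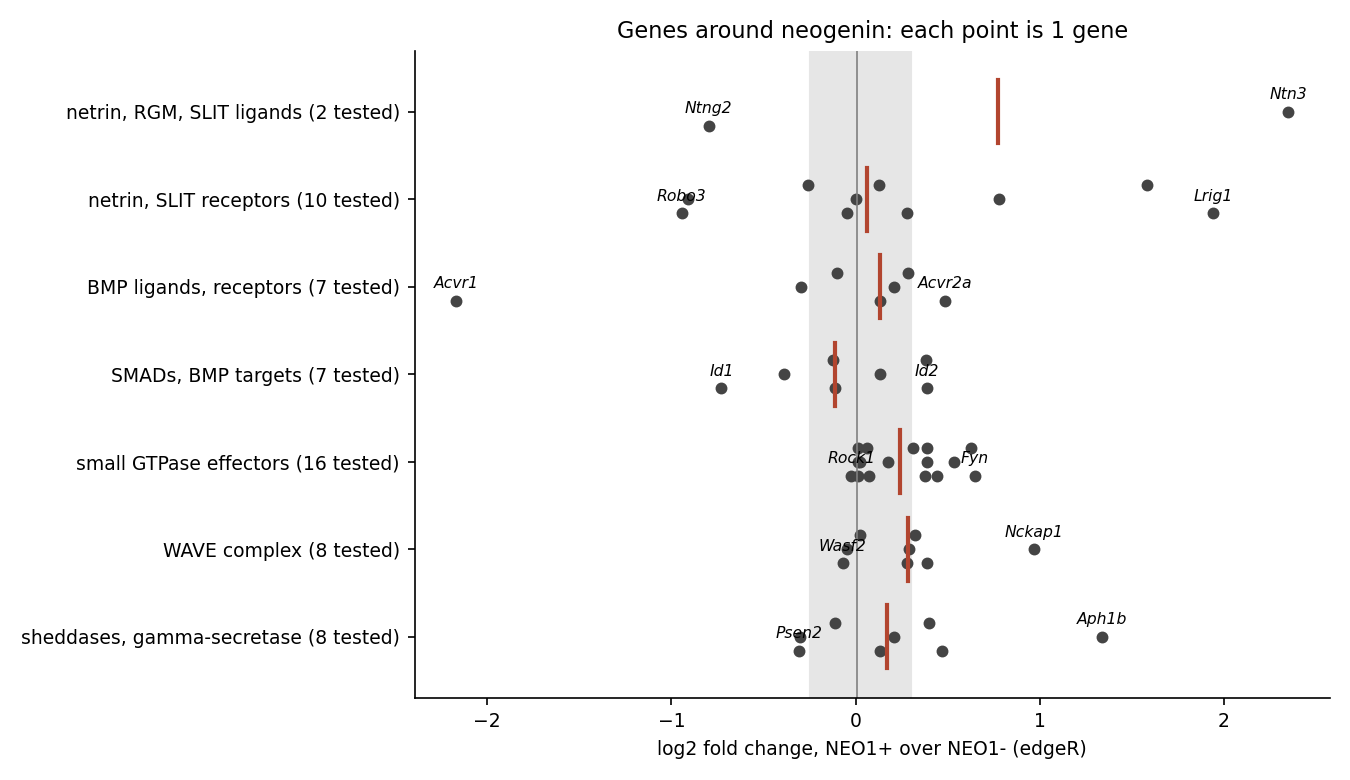
Log2 fold change of NEO1+ over NEO1- for the 58 tested genes around neogenin-1 (points), by list. The red bars are list medians, the grey band spans the quartiles of all 12203 tested genes and the grey line their median, and the lowest and highest gene of each list are named; list medians run from -0.11 to 0.78, the last over 2 genes.

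Genes whose level followed Neo1 or Robo4 across the 10 libraries were ranked by Pearson's r of log2 CPM among 9000 tested genes of at least 10 CPM. For Neo1 the 5 most alike included Fbxw8 (r = 0.93), Fhl1 (0.91), Gle1 (0.90) and Arhgap29 (0.88). Fhl1, a LIM domain protein, averaged 93.5 ± 13.9 CPM over NEO1+ and 58.4 ± 8.06 CPM over NEO1- libraries, and Arhgap29, a GTPase-activating protein, stood at 8.97 CPM in the library labelled NEO1+ number 4 against a NEO1+ mean of 31.3 ± 15.9 CPM (SD, n = 5 each). Without that library 2 of the 5 stayed among the 5 most alike. For Robo4 they were Hnrnpdl (r = 0.97), Acp2 (0.94), Tars (0.92), B4galnt1 (0.90) and Slc29a1 (0.89), and 3 of the 5 stayed without the same library. All points share the libraries and their scaling, the ranking chose the highest of many values, and r is given as a description.

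**Figure D4:**
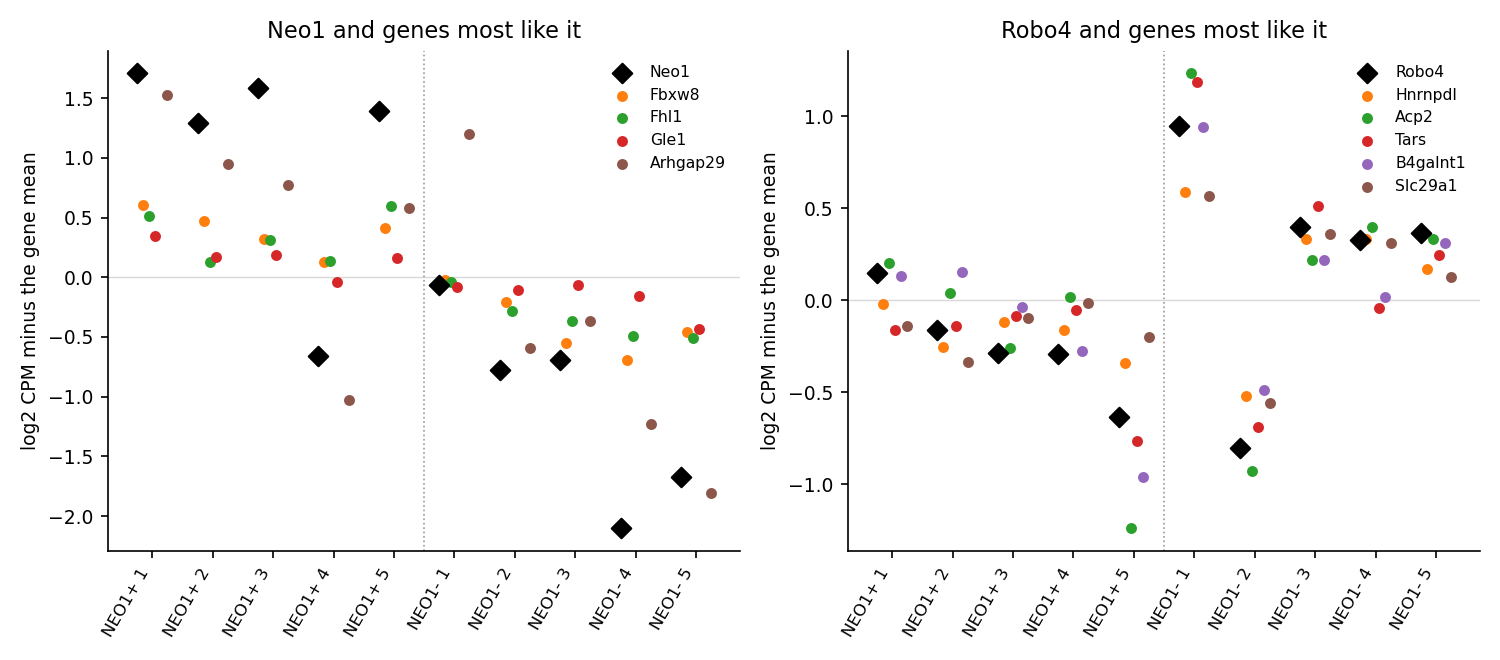
Log2 CPM minus the mean of each gene in 10 libraries (horizontal axis; the dotted line parts NEO1+ from NEO1-) for Neo1 (left) and Robo4 (right), drawn as black diamonds, with 4 of the 5 genes most like Neo1 and the 5 most like Robo4. Neo1 and Arhgap29 dip together in NEO1+ library 4, and Robo4 with its 5 genes is highest in NEO1- library 1.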

How the data were processed

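The authors deposited raw counts per gene symbol in 10 libraries, 5 NEO1+ and 5 NEO1-, and a table of log2 values, which equal log2 of the count over a size factor per library, plus 1 (largest residual 8.3e-14). The submitters' processing notes name bcl2fastq 2.18, STAR 2.4, DESeq2 1.22.2 and the mm10 build; the counting tool, annotation and strand setting are not given in the sources used here, so isoforms and antisense reads cannot be told apart. No 2 libraries of a group were alike within counting noise (chi-square per degree of freedom at least 86.7).

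Counts were fitted as ~group over all genes with edgeR 4.0.16 in R 4.3.3 (filterByExpr, TMM, quasi-likelihood, robust), with Benjamini-Hochberg adjustment over all genes tested and a threshold of 0.05. The SE of a fold change is its size over the root of F. DESeq2 1.42.0 and limma 3.58.1 served as alternatives. The scripts were tested on simulated data. Log2 CPM used a prior count of 2. Merged exon lengths came from GENCODE.

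Members and gene lists were chosen with earlier results of these data known. Named pathway genes are the 3 of smallest unadjusted p per list; a few genes that the naming rules select are not reported here. Unc5c, Unc5d, Dscam, Robo2, Hfe2, Ntn5, Ntng1, Slit1, Bmp6, Bmpr1b, Tek, Hoxb5, Cd34, Flt3, Cd48 and the endothelial markers with counts were named after their values were seen.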

Additional observations from a re-analysis of the deposited data

Results flagged for a closer look

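In 52 groups of 5 libraries (the tested members, the named pathway genes and the library measures), 6 held a value set off from the next one by a gap, relative to the range of the group, above Dixon's 95% critical value; about 2.6 are expected by chance. Values are log2 CPM. Neo1 was at 3.65 in NEO1+ library 4, while the remaining NEO1+ libraries lay at 5.61 to 6.02. Rgmb was at -3.98, the value of 0 counts, in NEO1- library 2, against 1.88 to 3.98. Unc5a was likewise at -3.98 in NEO1- library 1, against 2.69 to 2.94. Nck1 was at 6.47 in NEO1+ library 1, against 5.63 to 5.87. Cyfip2 was at 5.43 in NEO1- library 1, against 6.32 to 6.59, and Nckap1 at 0.16 in the same library, against 3.67 to 5.00, so 3 of the 6 fell on NEO1- library 1. Both Cyfip2 and Nckap1 encode parts of the WAVE complex.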

How the results depend on the processing

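Neo1, Rgmb and Robo4 kept their direction under every alternative run, and 1 of 3 members changed its call. DESeq2 called Neo1 (log2 fold change 2.15), which made 1 member called, among 147 genes in all. Of the genes around neogenin-1 DESeq2 called 0. Whether equal library numbers mark a pairing is not settled: deviations from the group means correlated weakly, by 0.00 to 0.04 and all above 0, for numbers 1 to 5, and 3 of 5 NEO1+ libraries correlated best with their own number, a hint from the data and not the design. With the replicate number as a block, edgeR called 0 genes (874 at an unadjusted p under 0.05), with Neo1 at 2.13 (edgeR adjusted p 0.308). Under the same block DESeq2 called 724 of 13324 genes (5.43%). These included 1 member (Neo1, 2.13, DESeq2 adjusted p 1.64e-09) and 3 genes around neogenin-1. They were Ntn3 (log2 fold change 6.34, SE 1.44, DESeq2 adjusted p 0.00104), Fyn (0.73, SE 0.24, adjusted p 0.0387) and Nckap1 (1.41, SE 0.44, adjusted p 0.0316). Without the low-count filter edgeR called 2 genes, and limma on the deposited log2 values 1, no member among them. Leaving out 1 library gave Neo1 1.96 to 2.47, 0 to 1 genes called in all (1 without NEO1- library 1), 0 members and 0 genes around neogenin-1 called. It also gave 0 to 1 members without overlap, namely 1 without NEO1+ library 4 or NEO1- library 1 (Neo1) or NEO1- library 2 (Robo4). The edgeR adjusted p of Neo1 lay between 0.183 and 0.9998 over its edgeR alternatives, and the unadjusted p between 4.27e-05 and 0.00163. The call on genes detected changed without NEO1- library 4 (difference 1255 genes, exact permutation p 0.00794, adjusted 0.0119), as did that on Rn45s (-7.97 percentage points, exact permutation p 0.0238, adjusted 0.0238). Depth does not limit Neo1 or Robo4. For members at 0 counts depth alone limits the statement to levels above 0.142 CPM in a library. That bound leaves out transcripts lost before sequencing, so a 0 in a single library does not exclude a higher level.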

Other observations

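The ratio of Neo1 to Robo4 within a library cannot be moved by scaling between libraries; it was computed after seeing the data. Per kb of exon it was 0.652, 0.606, 0.811, 0.171 and 0.901 in NEO1+ libraries 1 to 5 and 0.109, 0.225, 0.103, 0.0405 and 0.0532 in NEO1- libraries 1 to 5, with means of 0.628 ± 0.282 and 0.106 ± 0.0728 (SD, n = 5 each). Without NEO1+ library 4 the NEO1+ mean was 0.743 ± 0.137 (SD, n = 4). NEO1+ library 4 lay below NEO1- library 2 on this measure and above the other NEO1- libraries.

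By deviations from the group means alone, the 5 genes most like Neo1 were Exo5, Arhgap29, Bckdha, Timp2 and Prkcd, with Pearson's r of 0.93, 0.91, 0.90, 0.89 and 0.89 over the 10 libraries. Without NEO1+ library 4 none of them stayed among the 5 most alike (0 of 5). The group means still included that library, so this second ranking is not free of the difference between groups.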
